A study of Populus tremula x Populus alba with 2 samples.

Results

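The genes described here are 10 poplar NAC genes that act as master switches of wood formation, taken by identifier from a table of 41336 rows, of which 41335 are poplar genes. They form 5 pairs of duplicates. The fibre clade holds 4 genes, the SND1 homologues Potri.011G153300 (WND1A) and Potri.001G448400 (WND1B) and the NST homologues Potri.014G104800 (WND2A) and Potri.002G178700 (WND2B). The vessel clade holds 6 genes, the WND5 pair of VND4/5 type (Potri.007G014400 and Potri.005G116800), a VND7-type pair (Potri.019G083600 and Potri.013G113100) and a VND1-3-type pair (Potri.015G127400 and Potri.012G126500). The members were chosen by name, with no rule on their values, but with earlier results of these data already known. The table itself pairs identifiers with no gene names, so the clade of each gene could not be checked against a sequence, and no sequence is printed.

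The MOMT4 library came from transgenic hybrid aspen (Populus tremula x Populus alba, line MOMT4-0), which carries an engineered monolignol 4-O-methyltransferase under the bean PAL2 promoter, a promoter of vascular tissue. The WT library came from control plants. Both were coppiced plants grown for about 2 months in a greenhouse. Each is 1 library from about 100 mg of debarked stem (internodes 1 to 15), pooled from 2 to 3 plants of 1 transgenic line or of the control, so there is no replicate error, and no p-value can be given for any difference between the lines. The question that the comparison addresses is whether expressing MOMT4 alters the transcripts of genes that build the wall. In such bulk stem, fewer cells of a type and less RNA per cell cannot be told apart. Defining markers of xylem, cambium and phloem were not analysed here, since no annotation names them.

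NAC master switches are transcription factors that start the whole programme of secondary wall deposition. They bind the promoters of MYB regulators and of wall and cell death genes, and so turn on cellulose, xylan and lignin synthesis together. In Arabidopsis, SND1 and the NST factors act mainly in fibres, the cells that bear load, whereas the VND factors act in vessels, the cells that conduct water and die as they mature.

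Levels are given in RPKM, reads scaled to the exon length of the gene and to the mapped reads of the library, so genes may be compared per length within a library. Over all rows, RPKM added up to 661765 in MOMT4 and 669547 in WT. The 1 row without a poplar identifier, taken as the transgene, had 1221.8 RPKM in the MOMT4 column and 4.79 RPKM in the WT column. The columns were assigned by their headings, although the sample descriptions cross the short codes of the columns. From the spacing of low RPKM values, the scaling total was 9463000 reads for MOMT4 and 8753000 reads for WT, and whether these totals equal the reads sequenced was not tested. For 4 of the 10 genes this spacing also gave back whole reads, and for the other 6 only the most reads that the span of the gene allows. Intervals on single genes are exact (Clopper-Pearson, 95%) on the split of these reads, and those on sums propagate the counting error. They cover counting error only, and those at the limit set by the span are the narrowest possible, up to rounding of that limit to whole reads for single genes. Positions are those of the table, whose genome build is not given in the sources used here, and each is the stretch that the table gives for the gene, introns included.

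The fibre clade was much the more abundant in both libraries, and within it the WND1 pair stood far above the WND2 pair. The summed level of the 4 fibre genes was 79.0 RPKM in MOMT4 and 80.4 RPKM in WT, a ratio of 0.983 (counting interval no narrower than 0.914 to 1.06). The summed level of the 6 vessel genes was 17.4 RPKM in MOMT4 and 23.1 RPKM in WT, a ratio of 0.751 (no narrower than 0.664 to 0.849). The fibre genes thus made up 82.0% of the summed level in MOMT4 and 77.6% in WT, or 4.55 and 3.47 times the vessel sum in MOMT4 and in WT. This lead rested on the WND1 pair. The WND2 pair alone summed to 14.3 RPKM in MOMT4 and 11.4 RPKM in WT, below the vessel sum in both libraries. The difference of -4.78 RPKM in Potri.007G014400 equalled 82.9% of the net difference of -5.76 RPKM in the vessel sum. That net value includes Potri.005G116800 (0.68 RPKM) and Potri.019G083600 (0.26 RPKM), which were higher in MOMT4. Without Potri.007G014400, the vessel sums were 7.87 RPKM in MOMT4 and 8.86 RPKM in WT, a ratio of 0.889 with an interval no narrower than 0.709 to 1.11.

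**Figure D1:**
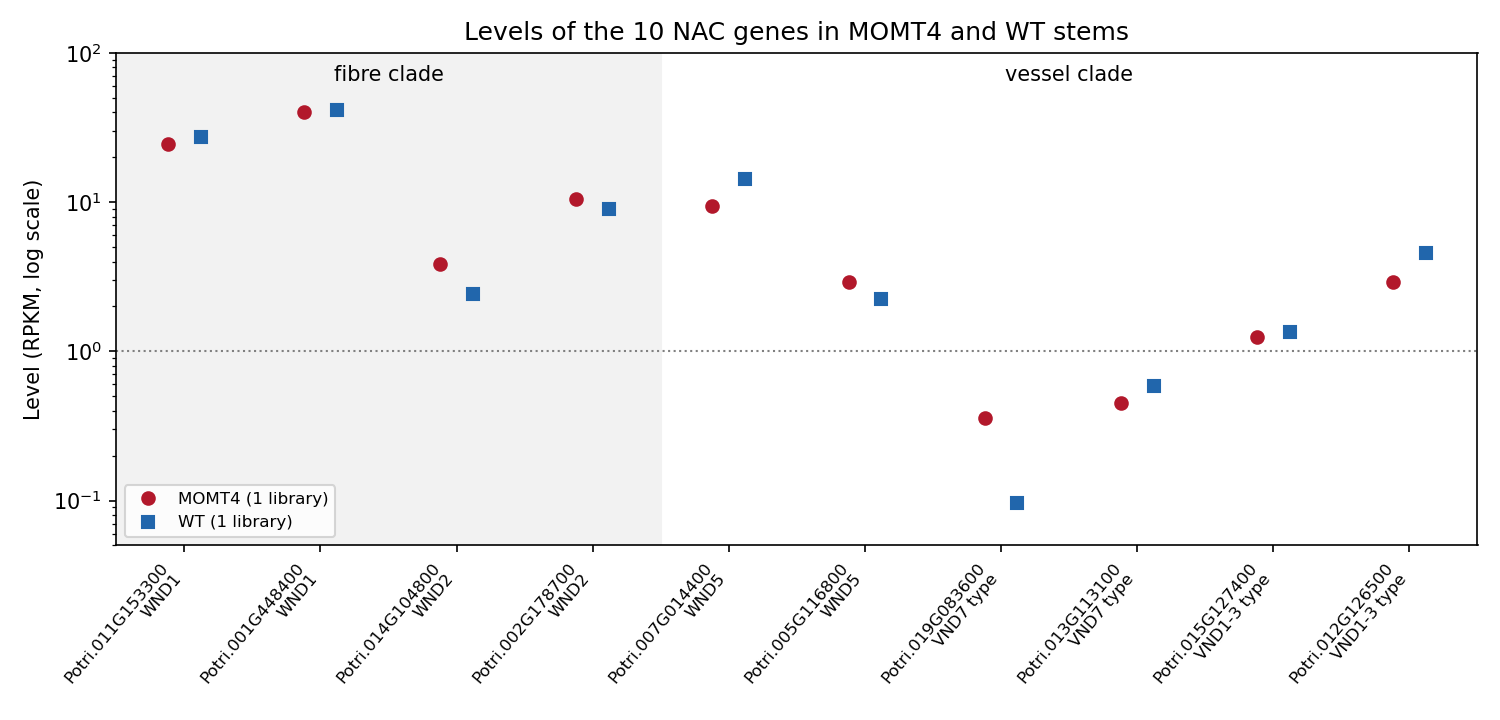
Level of each of the 10 NAC genes in RPKM (log scale), with the MOMT4 library as circles and the WT library as squares, 1 library each, and a dotted line at 1 RPKM. The WND1 genes lie above 20 RPKM in both libraries, and the VND7-type genes lie below the line in both.

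None of the 10 genes was 2-fold apart between the lines on the scale log2((MOMT4 + 1)/(WT + 1)). This scale adds a pseudocount of 1 RPKM and understates the change of low genes. Of the members, 8 passed the filter of a mean of at least 1 RPKM, and 0 of these 8 were at least 2-fold apart. Over all 22944 poplar genes past that filter, 1.77% were. Counting error alone can carry a gene past this limit. How much of the 1.77% is due to counting error was not tested. At a limit of 1.5-fold the count of members was again 0, against 7.07% of all genes. That count depended on the pseudocount. With 0.1 RPKM added in place of 1, 2 of the 8, Potri.014G104800 (0.64 on the log2 scale) and Potri.012G126500 (-0.65), were at least 1.5-fold apart, against 11% of all genes past the filter. Potri.007G014400 (-0.583) fell just short of the limit at that setting. Without a pseudocount, its RPKM in WT was 1.503 times that in MOMT4. The share of all genes past 1.5-fold without a pseudocount was not computed. With 8 genes, none of these counts sets the members apart from the background. Of the 8, 3 had more RPKM in MOMT4 and 5 had less. Their median log2 ratio was -0.056, and that of all genes past the filter was -0.0057. The median size of the ratio, whatever its sign, was 0.24 for the members and 0.17 for all genes.

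**Figure D2:**
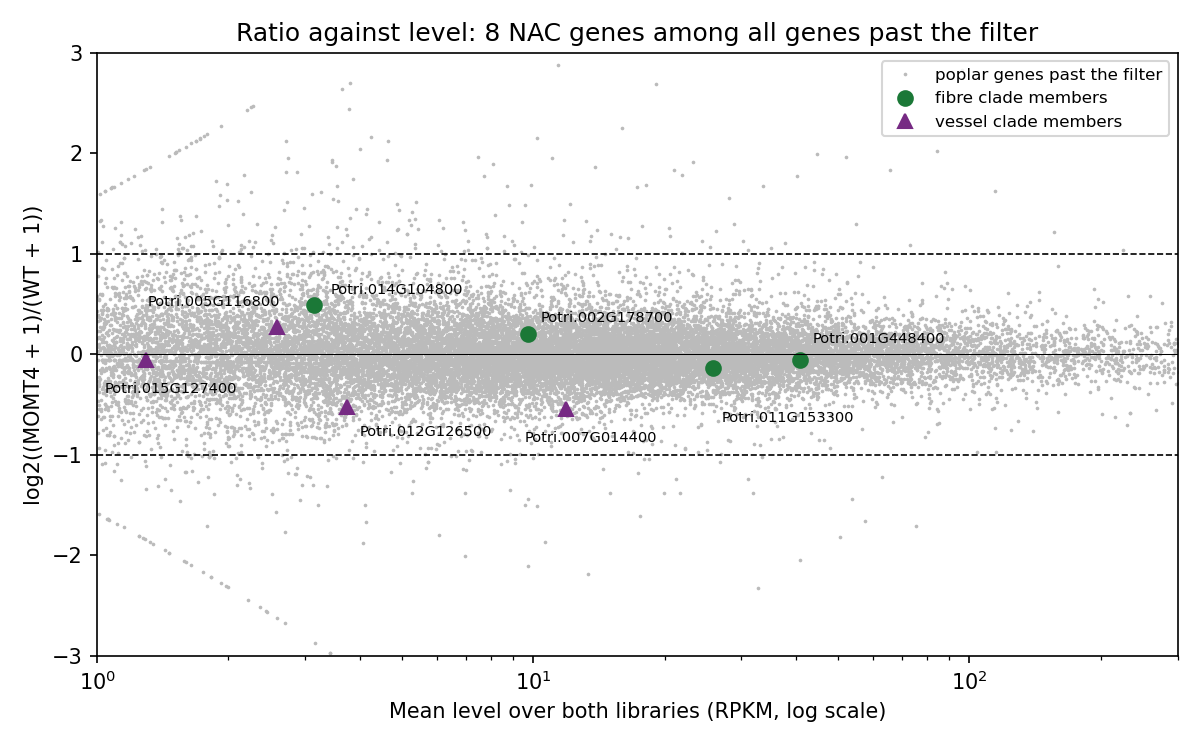
Log2 ratio of MOMT4 over WT (vertical axis) against the mean level in RPKM (horizontal axis, log scale) for the 8 members past the filter, circles for the fibre clade and triangles for the vessel clade, over the other poplar genes in grey. All 8 lie between the dashed lines at 2-fold. 250 genes beyond 300 RPKM or a log2 ratio of 3 in size are not drawn.

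The SND1 homologues, which in Arabidopsis fibres are the main switch of wall thickening, were the most abundant members. Potri.001G448400 (WND1B) lies on chromosome 1, from 48256678 to 48259048, and had 40.1 RPKM in MOMT4 and 41.8 RPKM in WT. Its log2 ratio was -0.06, and the ratio of RPKM of 0.960 has an interval no narrower than 0.871 to 1.06, from at most 819 reads in MOMT4 and 788 in WT. Its level stood above that of 87.3% of expressed rows in MOMT4 and 87.7% in WT, so that its place in the transcriptome was nearly the same in both lines. Potri.011G153300 (WND1A), on chromosome 11 from 17183973 to 17186300, had 24.6 RPKM in MOMT4 and 27.2 RPKM in WT. Its log2 ratio was -0.14, with a ratio of 0.906 and an interval no narrower than 0.797 to 1.03. For both WND1 genes, even the narrowest interval includes equal levels. Together the pair held 67.2% of the summed level of the 10 genes in MOMT4 and 66.6% in WT.

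The NST homologues, which in Arabidopsis act beside SND1 in fibres, were both higher in MOMT4 in value. Potri.002G178700 (WND2B), on chromosome 2 from 13836457 to 13838247, had 10.4 RPKM in MOMT4 and 8.97 RPKM in WT, a log2 ratio of 0.20. Its ratio of 1.16 has an interval no narrower than 0.913 to 1.49. Potri.014G104800 (WND2A), on chromosome 14 from 8242353 to 8244133, had 3.84 RPKM in MOMT4 and 2.43 RPKM in WT, the highest log2 ratio of the 8 members past the filter, 0.49. These values rest on 46 reads in MOMT4 and 27 in WT, the only whole numbers of reads that the span allows. The ratio of 1.58 has a counting interval of 0.959 to 2.64, which includes equal levels. Over the 6342 genes with a mean of 1 to 5 RPKM, the central 95% of log2 ratios ran from -0.83 to 1.00, so that WND2A lies well inside the spread of genes of its level. The WND2 pair summed to 14.3 RPKM in MOMT4 and 11.4 RPKM in WT, a ratio of 1.25 with an interval no narrower than 1.01 to 1.55. The intervals of both genes include equal levels, and the true interval of the sum, at least as wide as this, may include them too.

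The WND5 pair held the most abundant vessel gene and the member with the lowest log2 ratio. Potri.007G014400, on chromosome 7 from 1077331 to 1081553, had 9.50 RPKM in MOMT4 and 14.3 RPKM in WT, a difference of -4.78 RPKM and a log2 ratio of -0.54. Its ratio of RPKM was 0.665, with an interval no narrower than 0.579 to 0.763, from at most 360 reads in MOMT4 and 501 in WT. It is the only member whose narrowest interval leaves out equal levels. The true interval is at least as wide, since the reads counted over exons are at most as many as the span allows. Over the 9304 genes with a mean of 5 to 20 RPKM, the central 95% of log2 ratios ran from -0.56 to 0.61, so that this gene sits just inside the lower end, and 8.41% of all genes past the filter were at least as far from 0. Its copy, Potri.005G116800, on chromosome 5 from 8990721 to 8994949, had 2.92 RPKM in MOMT4 and 2.24 RPKM in WT, a log2 ratio of 0.27. The smallest whole reads with that ratio are 31 in MOMT4 and 22 in WT, and up to 3 times as many would be possible. At the smallest numbers, the ratio of 1.30 has an interval of 0.731 to 2.36. The members of this pair thus differed between the lines in opposite directions in value, the lower copy within counting error.

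**Figure D3:**
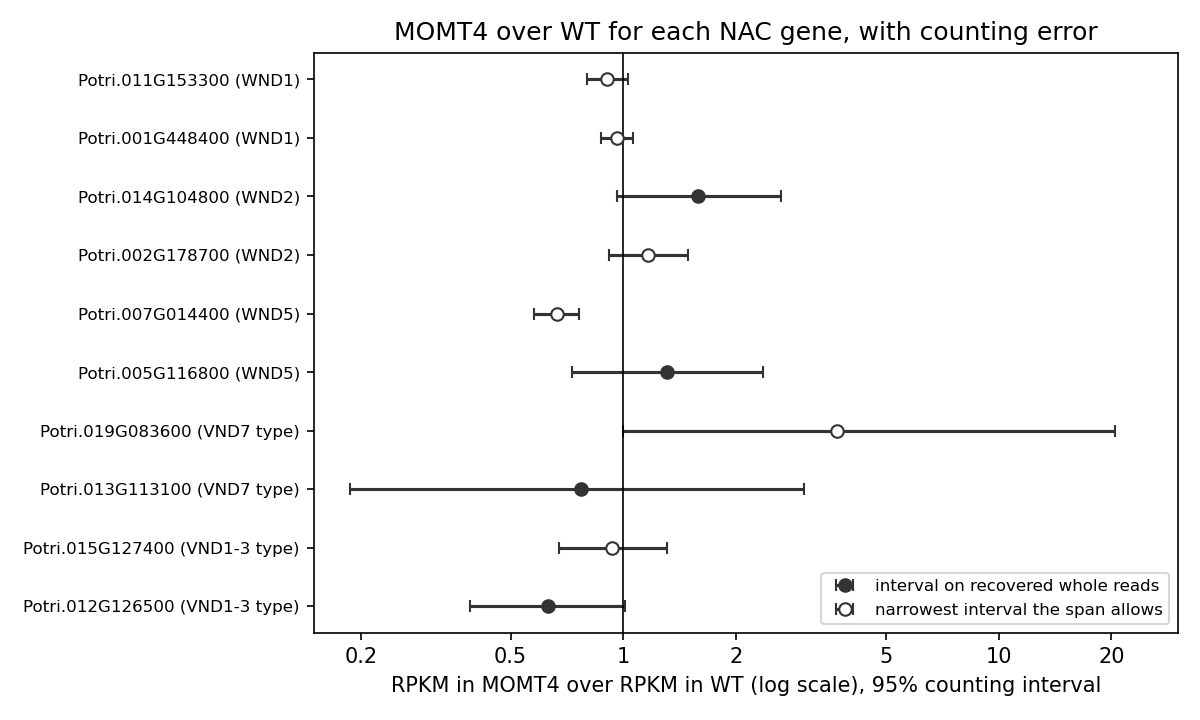
Ratio of RPKM in MOMT4 over WT for each gene (horizontal axis, log scale) with its 95% counting interval. Filled points have intervals on recovered whole reads, and open points the narrowest interval that the span of the gene allows. The interval of Potri.007G014400 ends at 0.763, and the other 9 include 1.

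The VND1-3-type genes, whose Arabidopsis counterparts act in vessels, were low in both lines. Potri.012G126500, on chromosome 12 from 14465047 to 14466614, had 2.89 RPKM in MOMT4 and 4.60 RPKM in WT, a log2 ratio of -0.52. These values rest on 32 reads in MOMT4 and 47 in WT, the only whole numbers that the span allows. Its ratio of 0.630 has an interval of 0.389 to 1.01, which only just includes equal levels. Potri.015G127400 had 1.25 RPKM in MOMT4 and 1.34 RPKM in WT, a log2 ratio of -0.06 and a ratio of 0.934 with an interval no narrower than 0.674 to 1.30. The table places it on chromosome 15 from 13960890 to 13967630, a stretch that it gives also for Potri.015G127300, which is listed at 0 in both libraries, so the length of Potri.015G127400 alone is not known from the table. The pair summed to 4.15 RPKM in MOMT4 and 5.94 RPKM in WT, a ratio of 0.698 with an interval no narrower than 0.498 to 0.980. Here too each gene's own interval includes equal levels, and the true interval of the sum may do so.

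The VND7-type genes, homologues of the Arabidopsis switch of protoxylem vessels, were barely detected and did not pass the filter. Potri.013G113100, on chromosome 13 from 12652735 to 12656380, had 0.450 RPKM in MOMT4 and 0.584 RPKM in WT. The smallest whole reads with that ratio are 5 in MOMT4 and 6 in WT, with a ratio of 0.771 and an interval of 0.186 to 3.03. Potri.019G083600, on chromosome 19 from 11646876 to 11650530, had 0.355 RPKM in MOMT4 and 0.0958 RPKM in WT. Its ratio of 3.71 is the largest of the 10 genes, but the span allows only about 12 reads in MOMT4 and 3 in WT, both rounded. Corrected for the worth of 1 read, the ratio of reads is 4.008, which no whole numbers within these limits give. Whether the value holds reads shared between genes was not tested. The interval on the rounded limits, 0.999 to 20.4, is therefore approximate, and it includes equal levels. A difference in either gene was not detectable at this depth. The log2 ratio with the pseudocount was -0.13 for Potri.013G113100 and 0.31 for Potri.019G083600.

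**Figure D4:**
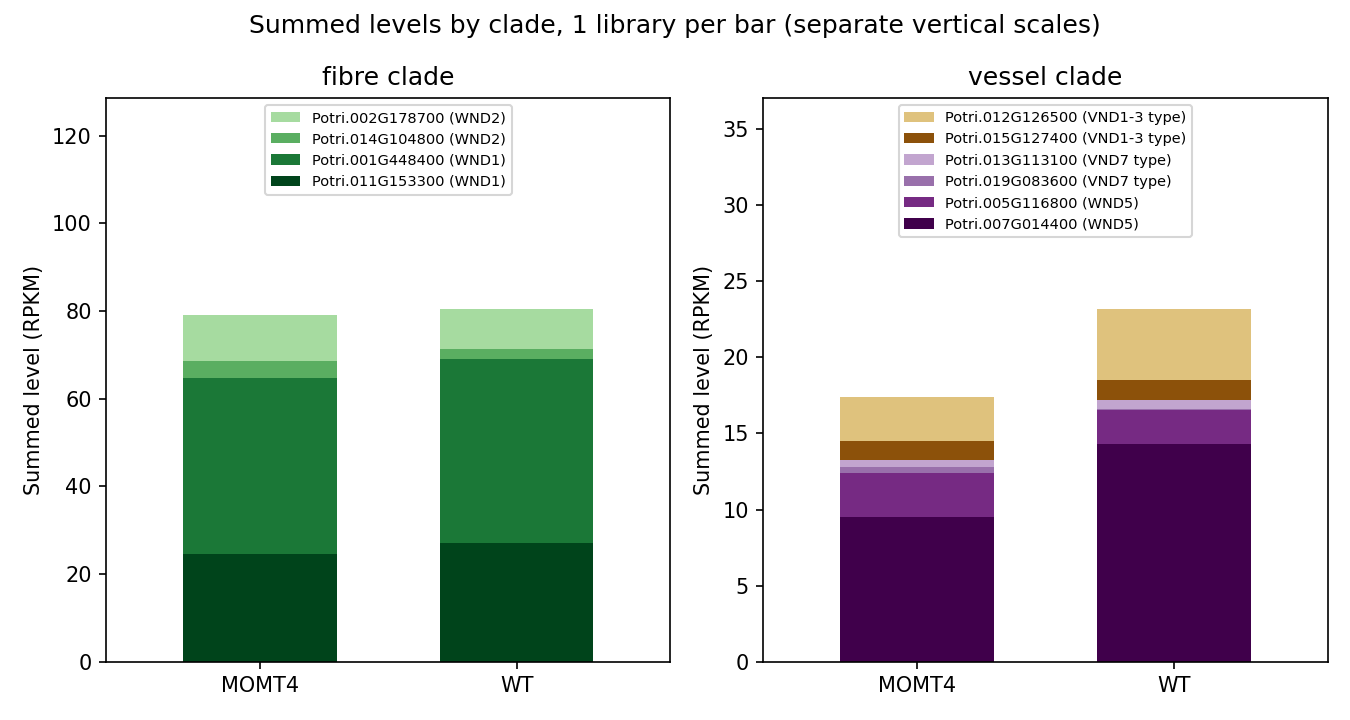
Summed RPKM of the fibre clade (left) and vessel clade (right) in MOMT4 and WT, stacked by gene, 1 library per bar, on separate vertical scales that start at 0. The fibre bars reach 79.0 RPKM in MOMT4 and 80.4 RPKM in WT, and most of the difference between the vessel bars, 17.4 RPKM in MOMT4 and 23.1 RPKM in WT, lies in the bottom segment, Potri.007G014400.

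The order of the 10 levels was alike in the lines, with 5 genes at the same place. WND1B and WND1A came before all others, and Potri.015G127400, Potri.013G113100 and Potri.019G083600 came last in that order in both libraries. In the middle, Potri.002G178700 stood at place 3 and Potri.007G014400 at place 4 in MOMT4, and they changed places in WT. Potri.012G126500 stood at place 7 in MOMT4 and 5 in WT, passing Potri.014G104800 and Potri.005G116800. These 3 genes had between 2.24 and 4.60 RPKM in the 2 libraries. Whether their order differs between lines cannot be told from 1 library each.

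In each pair the same copy was the more abundant in both lines. WND1 was the most even pair with many reads, with WND1B at 62.0% of the pair in MOMT4 and 60.6% in WT. In the WND2 pair, Potri.002G178700 held 73.1% in MOMT4 and 78.7% in WT. The major copy of the WND5 pair, Potri.007G014400, held 76.5% in MOMT4 and 86.4% in WT, or 3.25 times the level of its copy in MOMT4 and 6.37 times in WT. This was the widest change of share in a pair past the filter, at -9.96 percentage points, and it combines a lower major copy with a minor copy that was higher in value. In the VND1-3-type pair, Potri.012G126500 held 69.8% in MOMT4 and 77.4% in WT. In the VND7-type pair, Potri.013G113100 held 55.9% in MOMT4 and 85.9% in WT, shares that rest on the few reads given above. The major copy thus had the smaller share in MOMT4 in 4 of the 5 pairs, WND1 being the exception. No counting error was computed for a change of share, and other duplicate pairs of the genome were not compared. The tally therefore cannot be read as a common shift.

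**Figure D5:**
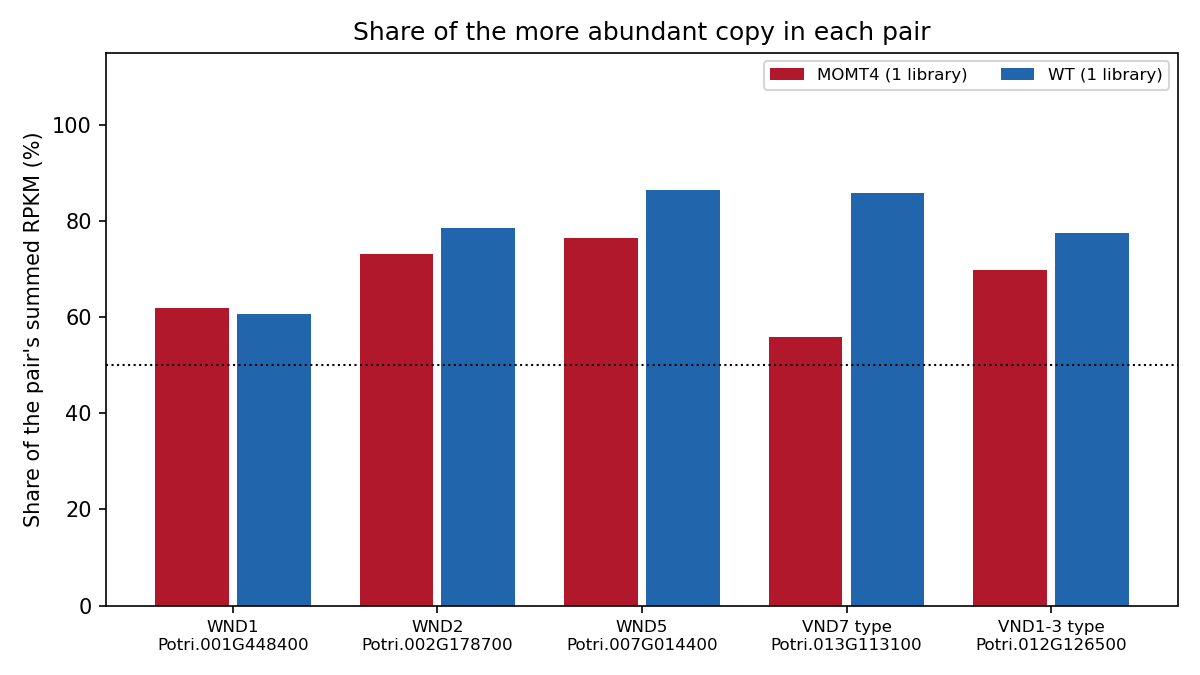
Share of the summed RPKM of each pair held by its more abundant copy (vertical axis, %), in MOMT4 (left bar) and WT (right bar), 1 library each, with a dotted line at 50%. Every bar is above the line, from 55.9% for the VND7-type pair in MOMT4 to 86.4% for the WND5 pair in WT.

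The reads of this hybrid of P. tremula and P. alba were aligned to P. trichocarpa with 1 mismatch allowed, so a copy that differs more from the reference could lose more reads. Its part in the levels and in the shares within pairs was not tested, nor was sharing of reads between copies.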

How the data were processed

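Strand-specific libraries were made from the total RNA of 1 pool of stems per line. The authors' deposited table gives 1 RPKM value per gene and library, from TopHat alignments (1 mismatch) to a P. trichocarpa assembly obtained from PlantGDB, whose build, like the program versions, is not given in the sources used here. The columns of the authors' own Cuffdiff comparison (log2 ratio, test statistic, p-value, q-value) were not used. Starts are those of the table plus 1.

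The members and lists were chosen with earlier results of these data known, and all 10 members are named. Log2 ratios used a pseudocount of 1 RPKM. The background was all poplar rows whose mean reached 1 RPKM, less the 2 rows marked as failed. With 1 library per line no test was run. The worth of 1 read in RPKM was 1.08 times as high in WT as in MOMT4, a ratio shared by 997 rows. Reads were the smallest whole numbers (up to 200 in WT) whose ratio matched the 6 printed digits, with at most 0.05 accidental matches foreseen. The most reads allowed came from the span less 215 bases, the length taken off genes of a single exon. Intervals on sums propagate these reads on the log scale. In a simulated table of 41335 genes, 99.9% of the pairs of reads found had the true ratio. That table held whole reads drawn for each gene, with none shared between copies and with most gene lengths drawn at random. It therefore cannot tell whether reads are recovered rightly where duplicate copies share them. Alternatives were a pseudocount of 0.1, centring, scaling to an equal sum (TPM), a limit of 1.5-fold, other filters and leaving out single members. Lists of MYB, SND2-type, cellulose synthase, cell death and marker genes, and promoter motifs and proteins, were not analysed here, since no annotation or sequence was used. The work used matplotlib 3.10.9, SciPy 1.17.1, NumPy 2.4.6 and pandas 2.3.3 under Python 3.11.15.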

Additional observations from a re-analysis of the deposited data

How the results depend on the processing

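No paired analysis was possible because each line has 1 library, and no library could be left out. The log2 ratios of the 10 genes were recomputed under 3 settings (a pseudocount of 0.1 RPKM, centring on the median of all genes and scaling to the same sum). All 30 values kept their sign and stayed inside the counting interval, placed around the main log2 ratio. Neither point carries weight. Counting error does not measure a change of setting, and the interval of a low gene can be wide enough to hold even a shift of 0.91. A change of pseudocount cannot turn a sign, and the median used for centring (-0.0057) was smaller in size than the ratio of every member. The 2 libraries had nearly equal sums, so scaling to the same sum hardly changed the ratios of RPKM. The common sum was larger than either, however, which lessened the weight of the pseudocount on low genes. The log2 ratio of Potri.019G083600 was 0.43 at that setting in place of 0.31. The largest shift, 0.91, was that of Potri.019G083600 with a pseudocount of 0.1, where its log2 ratio was 1.22 in place of 0.31, which made it the 1 member at least 2-fold apart when the expression filter was dropped as well, a setting chosen after seeing the data. The number of members at least 2-fold apart was 0 under each other setting that kept the 2-fold limit, and also at a 1.5-fold limit alone. At 1.5-fold with a pseudocount of 0.1, a setting also added after seeing the data, it was 2 (Potri.014G104800 and Potri.012G126500). The settings that leave out Potri.007G014400 or Potri.012G126500 were also chosen after seeing the data. Without Potri.007G014400, the log2 ratio of the vessel sum was -0.15 in place of -0.39, and the fibre share was 90.9% in MOMT4 and 90.1% in WT. Without WND1B, the most abundant member, the fibre share was 69.1% in MOMT4 and 62.5% in WT. With 1 RPKM added to each value, the share of the major copy in WT was 82.5% for Potri.007G014400, 59.1% for Potri.013G113100 and 70.5% for Potri.012G126500, as adding a constant draws shares towards equality. The other 7 shares stayed within their counting spread. Alternatives for the other genes of the pathway were not run, since no annotation names those genes and their lists were not analysed. The VND7-type genes rest on the fewest reads, and why their levels are low was not tested.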
